A study of Mus musculus with 12 samples.

Results

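A set of 10 genes of glial development were followed in 2 experiments on embryonic mouse brain in which the growth-control pathway around YAP was altered. The genes were Nfia, Nfib, Olig1, Olig2, Pdgfra, Sox10, Sparcl1, Aldoc, Tnc and Apoe, and every probe set whose only annotated gene was one of them was used, which gave 24 of 45037 probe sets. Each gene had 1 to 6 probe sets, with 6 for Nfia and 6 for Nfib. The 12 arrays form 4 groups of 3. The YAP experiment took E11.5 forebrain and midbrain of embryos with TetO-YAP1 and Nes-rtTA (YAP overexpression), where doxycycline switches on the YAP1-S127A allele in cells that use the Nestin promoter, and of embryos with Nes-rtTA alone (YAP control). Dams were fed doxycycline at 200 mg/kg from E7.5 on. The Nf2 experiment took E13.5 dorsal telencephalon of Nf2F/F;Emx1-Cre embryos (Nf2 knockout) and of Nf2F/+;Emx1-Cre embryos (Nf2 control). Those controls carry the same Cre and have lost 1 copy of Nf2 in the cells that express it, and cells without Cre keep the gene in both groups. The genetic background was mixed. The labels do not say that the arrays of a group came from separate embryos, so p-values here cover the spread among these arrays alone, some of which may be technical.

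In the developing brain, neural progenitors first make neurons and later switch to making astrocytes and oligodendrocytes. NFIA and NFIB are related transcription factors that act at this switch, OLIG1 and OLIG2 are helix-loop-helix factors of ventral progenitors and of the oligodendrocyte lineage, SOX10 acts in oligodendrocytes and in the neural crest, and PDGFRA is the growth factor receptor of oligodendrocyte precursors. Sparcl1, Aldoc, Tnc and Apoe encode products of radial glia and astrocytes. Both ages lie before most glia are made. The tissue is bulk, and which cells gave the values of these genes was not measured. YAP is the transcriptional co-activator restrained by the Hippo kinases, and Merlin, the product of Nf2, acts upstream of those kinases.

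Values are log2 intensities, on which a difference of 1 is a doubling, and the 2 experiments were scaled apart, so levels are compared only within an experiment. The YAP arrays had medians of 5.03 to 5.1 and the Nf2 arrays of 4.3 to 4.42, and arrays of a group correlated with r of at least 0.993. The number of arrays limits the precision. Differences were tested with limma over all 45037 probe sets, and a probe set is called, and said to have risen or fallen, at a Benjamini-Hochberg adjusted p under 0.05. The manipulated genes were not called. The brighter Yap1 probe set read 11.35, 11.23 and 11.33 with YAP overexpression, against 11.07, 10.99 and 11.05 in YAP controls (log2 difference 0.27, limma adjusted p = 0.0959). The brightest Nf2 probe set read 8.06, 8.27 and 8.11 in Nf2 knockouts, against 8.41, 8.66 and 8.51 in Nf2 controls (-0.38, limma adjusted p = 0.393). Whether these probes match the transgene or the deleted part is not known here. Dorsal telencephalon held its marker Emx1 at 7.11 to 7.22 in Nf2 knockouts and 7.23 to 7.46 in Nf2 controls, and 4 of the 5 measured genes of the midbrain list (En1, En2, Lmx1b and Pax7) lay there below the array medians, between 2.57 and 3.38. The fifth, Otx2, lay above them, at 8.31 to 8.48 in Nf2 knockouts and 8.25 to 8.50 in Nf2 controls. En1, Lmx1b and Pax7 were on average below the median probe set in the YAP experiment too, whose tissue included midbrain. Their low values therefore say little about the tissue. In the YAP experiment En2 read 9.20 to 9.62 with YAP overexpression and 9.27 to 9.59 in YAP controls.

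Promoters are shown for 3 members on which results below turn. Olig2 was called, Nfia, like Nfib, had probe sets that disagreed in sign with YAP overexpression, and Aldoc separated the Nf2 groups most evenly. Each run is the 250 bases before the annotated start, from RefSeq on GRCm38.p6, on the plus strand. Capitals mark GGAATG, the core letters bound by TEAD factors, or TTGGC, a partial site of NFI factors, either of them on either strand.
Olig2 chr16:91225300-91225549: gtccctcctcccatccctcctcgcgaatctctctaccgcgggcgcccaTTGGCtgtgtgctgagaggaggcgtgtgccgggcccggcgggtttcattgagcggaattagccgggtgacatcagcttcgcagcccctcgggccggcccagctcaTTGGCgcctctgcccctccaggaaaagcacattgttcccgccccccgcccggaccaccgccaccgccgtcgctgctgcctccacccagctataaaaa
Nfia chr4:97581693-97581942: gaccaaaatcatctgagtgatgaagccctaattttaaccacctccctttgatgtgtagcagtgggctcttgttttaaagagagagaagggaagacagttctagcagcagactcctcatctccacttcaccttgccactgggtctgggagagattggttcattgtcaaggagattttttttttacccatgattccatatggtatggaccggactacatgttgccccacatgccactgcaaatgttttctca
Aldoc chr11:78322823-78323072: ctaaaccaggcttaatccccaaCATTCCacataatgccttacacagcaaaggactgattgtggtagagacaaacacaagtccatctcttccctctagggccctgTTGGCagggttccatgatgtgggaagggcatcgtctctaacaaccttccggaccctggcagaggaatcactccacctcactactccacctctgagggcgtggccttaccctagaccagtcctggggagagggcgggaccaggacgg
The Olig2 window held 2 NFI partial sites and no GGAATG, and the Nfia window neither. The printed Aldoc window held 1 of each, with GGAATG read as CATTCC on the printed strand. The window of the other Aldoc start, not printed, held neither. Promoters were found for 6 of the 10 genes, in 10 windows, since Aldoc, Tnc and Apoe have several starts. GGAATG stood in 2 of the 10 windows, 1 of Aldoc and 1 of Apoe, and in 12.6% of all 32851 windows. TTGGC stood in 5 of the 10 and in 41.5% of all. These matches are letters in a window and not measured binding. Nfib, Olig1, Sox10 and Sparcl1 had no entry. In the Olig locus, no protein-coding gene lies between Olig2 and Olig1 in RefSeq.

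The first comparison asked what YAP overexpression in neural progenitors does to these genes at E11.5. Nfib fell on 3 of its 6 probe sets, by 0.78 to 0.98 on the log2 scale, and Olig2 fell by 0.73 (3 arrays against 3). The limma SE for Olig2, 0.18, takes its spread from all 12 arrays. Nfia and Sparcl1 were lower by a similar or smaller amount but missed the threshold over all probe sets. Olig1, Pdgfra, Sox10, Aldoc, Tnc and Apoe were not called. In all, 4 of 24 probe sets fell and none rose, which is 16.7% called, against 3.78% of all probe sets called in either direction and 2.3% called lower. Without adjustment, 10 were lower and 1 higher at p under 0.05, where 9.2% of all probe sets were lower, 6.47% higher and 15.7% either. The median difference of the 24 was -0.25, against -0.01 over all probe sets, and 18 of the 24 were negative, against 53.0% of all. Probe sets of 1 gene are not independent, and the 18 include 5 of Nfia and 5 of Nfib. The members, and the lists below, were chosen with earlier results of these data known. Their shares beside those of all probe sets are therefore a description and not a test. By the brightest probe set of each gene, 8 of 10 were negative. The bulk tissue does not tell fewer cells of a type from less RNA per cell.

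**Figure D1:**
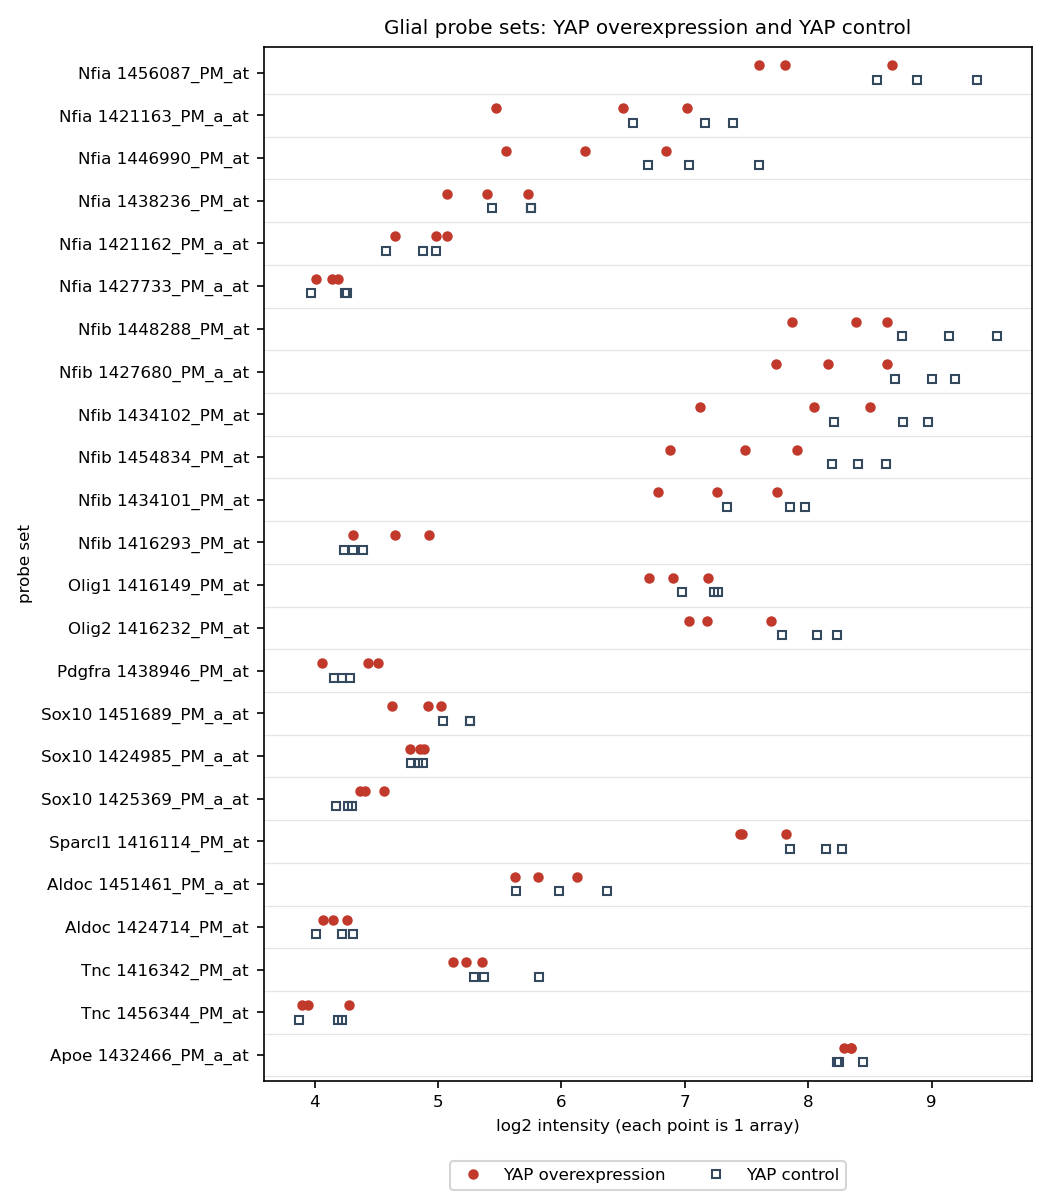
Log2 intensity of the 24 probe sets on the 6 arrays of the YAP experiment, with YAP overexpression as red circles above YAP control as open squares in each row. The overexpression arrays lie left of all control arrays for 3 Nfib probe sets, Olig2, Sparcl1 and 1 Sox10 probe set.

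Nfib gave the clearest difference. Probe set 1454834_PM_at read 7.49, 7.91 and 6.88 with YAP overexpression, against 8.40, 8.19 and 8.63 in YAP controls. All overexpression arrays lay below all controls, at 1.97-fold lower (-0.98, SE 0.20, limma adjusted p = 0.0148). That SE shares its spread with the Nf2 experiment, where this probe set varied less. Its SD was 0.52 with YAP overexpression and 0.22 in YAP controls, against 0.08 in Nf2 knockouts and 0.02 in Nf2 controls (n = 3 each). The brightest, 1448288_PM_at, read 8.39, 8.64 and 7.87 with YAP overexpression, against 9.14, 8.76 and 9.53 in YAP controls (-0.84, SE 0.19, limma adjusted p = 0.0288). The groups again did not overlap, with 0.12 between the overexpression array 2 and control array 2. The third called probe set, 1427680_PM_a_at, read 8.16, 8.64 and 7.74 with YAP overexpression, against 9.0, 8.70 and 9.19 in YAP controls (-0.78, SE 0.18, limma adjusted p = 0.0311). In each of the 3, overexpression array 3 was the lowest and array 2 the highest of its group. The further Nfib probe sets, 1434102_PM_at and 1434101_PM_at, were lower by 0.76 and 0.46 with overlapping groups and were not called (limma adjusted p = 0.183 and 0.31).

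The sixth Nfib probe set pointed the other way. Probe set 1416293_PM_at read 4.65, 4.31 and 4.93 with YAP overexpression, against 4.24, 4.39 and 4.31 in YAP controls (0.32, SE 0.13, limma adjusted p = 0.247). Here overexpression array 2 lay among the controls, and the mean over the 6 arrays was 0.59 below the median probe set of the experiment. Without overexpression array 2 this probe set was called as higher (0.48, limma adjusted p = 0.0272), on a level of under 5 in every array.

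Nfia was lower on its 3 brighter probe sets, with wide spread. The brightest, 1456087_PM_at, read 7.81, 8.68 and 7.60 with YAP overexpression, against 8.88, 8.56 and 9.37 in YAP controls. Overexpression arrays 1 and 3 lay below every control, and array 2 lay between control arrays 2 and 1. The mean was 8.03 ± 0.57 with YAP overexpression and 8.94 ± 0.41 in YAP controls (SD, n = 3 each), 1.87-fold lower (-0.91, SE 0.24, limma adjusted p = 0.059). Probe set 1446990_PM_at read 6.19, 6.85 and 5.55 with YAP overexpression, against 7.03, 6.70 and 7.60 in YAP controls (-0.91, SE 0.28, limma adjusted p = 0.102). Probe set 1421163_PM_a_at differed by -0.71 (SE 0.33, limma adjusted p = 0.325) and 1438236_PM_at by -0.25 (limma adjusted p = 0.52). The order of the overexpression arrays in the 3 brighter ones was that of Nfib, with array 3 lowest and array 2 highest.

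The last 2 Nfia probe sets differed in sign by amounts near 0. Probe set 1421162_PM_a_at read 4.98, 5.07 and 4.65 with YAP overexpression, against 4.98, 4.58 and 4.88 in YAP controls (0.09, 95% interval -0.30 to 0.47). Probe set 1427733_PM_a_at differed by -0.05 (95% interval -0.31 to 0.22). Both were dimmer than the median probe set of the experiment, as was the discordant Nfib one. Of the 12 probe sets of Nfia and Nfib, the 9 that were brighter than that median all differed downwards, from -0.98 to -0.25, with a median of -0.78. The 3 dimmer ones ran from -0.05 to 0.32. The probe sets with positive differences, Nfia 1421162_PM_a_at and Nfib 1416293_PM_at, were thus both dim. The other dim Nfia probe set was negative like the bright ones, and the intervals of both dim Nfia probe sets included 0. What the dim ones measure was not tested.

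**Figure D2:**
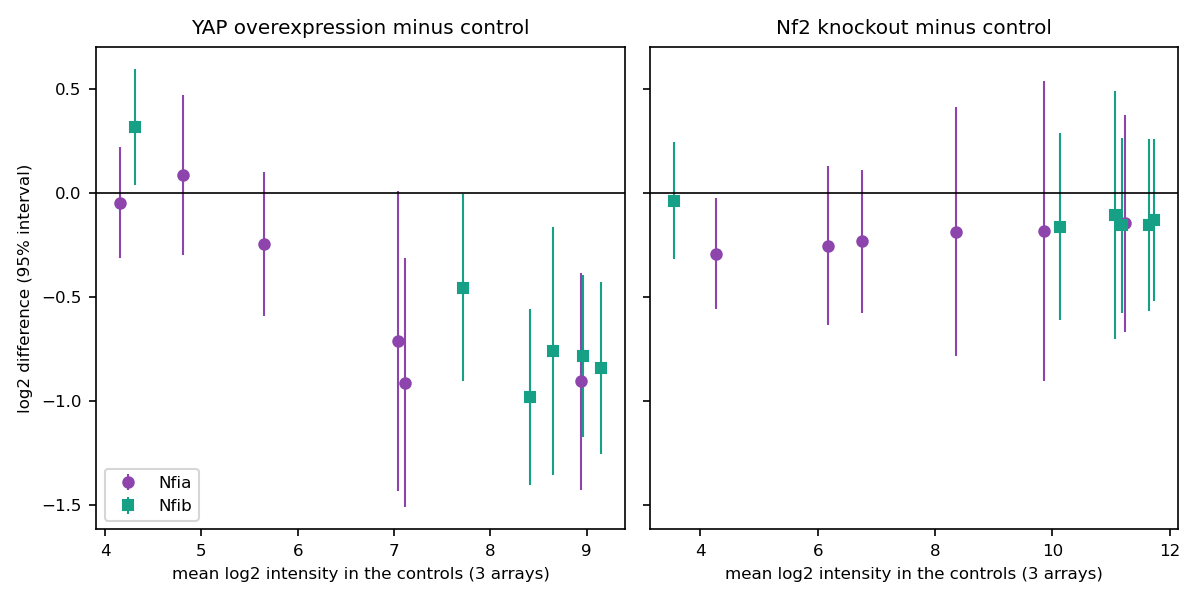
Log2 difference from control (vertical axis, with 95% limma intervals) of each Nfia (circles) and Nfib (squares) probe set against its mean log2 intensity in the 3 controls, for YAP overexpression on the left and Nf2 knockout on the right. In the YAP experiment the positive differences, 0.09 and 0.32, belong to probe sets at under 5, and in the Nf2 experiment all 12 are negative.

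With 1 probe set per gene, the brightest, Nfia was called as well. Over 17097 genes its limma adjusted p was 0.0469, that of Nfib 0.0227, of Olig2 0.0317 and of Sparcl1 0.0386, so 4 of 10 genes fell, where 3.64% of all genes were called lower. With the mean of each gene's probe sets, only Olig2 (limma adjusted p = 0.0324) and Sparcl1 (0.0386) were called, and the averages of Nfia (-0.46, 0.206) and Nfib (-0.58, 0.0539), which include the dim probe sets, were not.

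Olig2, which specifies oligodendrocyte precursors and ventral progenitors, had 1 probe set. It read 7.18, 7.03 and 7.70 with YAP overexpression, against 7.79, 8.07 and 8.23 in YAP controls. The groups did not overlap, by 0.09, and the fall was 1.65-fold (-0.73, SE 0.18, limma adjusted p = 0.0411). The order of the overexpression arrays differed from that of Nfib, since array 3 was here the highest. Its neighbour Olig1 read 7.19, 6.90 and 6.71 with YAP overexpression, against 7.27, 6.98 and 7.24 in YAP controls. These groups overlapped and the difference was not called (-0.23, 95% interval -0.79 to 0.33, limma adjusted p = 0.763). That interval includes the fall of Olig2, so the data do not show that the neighbours differ.

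Pdgfra and Sox10 were dim. The Pdgfra probe set read 4.43, 4.06 and 4.51 with YAP overexpression, against 4.16, 4.22 and 4.29 in YAP controls (0.11, limma adjusted p = 0.791), below the array medians in all 6. The 3 Sox10 probe sets lay between 4.17 and 5.26 and went in both directions. Probe set 1451689_PM_a_at differed by -0.33 without overlap (limma adjusted p = 0.276), 1425369_PM_a_at by 0.20 without overlap (0.512) and 1424985_PM_a_at by 0.00 (0.993). Groups without overlap in the lower direction were seen in 6 of the 24 probe sets, or 25.0%, against 10.3% of all probe sets.

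Among the glial products, Sparcl1, a matrix glycoprotein of radial glia and astrocytes, came closest to a call. It read 7.46, 7.82 and 7.45 with YAP overexpression, against 8.27, 8.14 and 7.85 in YAP controls. The groups were 0.03 apart, and the difference was 1.42-fold (-0.51, SE 0.13, limma adjusted p = 0.0528). Apoe, the lipid carrier of astrocytes and macrophages, had the narrowest interval of the 24, with 8.35, 8.35 and 8.29 under YAP overexpression, against 8.44, 8.25 and 8.23 in YAP controls (0.02, 95% interval -0.17 to 0.22). The brighter probe set of Tnc, a matrix protein of progenitors and glia, differed by -0.26 (95% interval -0.58 to 0.07), and that of Aldoc, a glycolytic enzyme of astrocytes, by -0.14 (95% interval -0.49 to 0.21). The dimmer Tnc and Aldoc probe sets differed by -0.05 and -0.02.

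The calls depended on single arrays. The count of called member probe sets was 1 without overexpression array 1, 8 without array 2 and 2 without array 3. It was 1 without control array 1, 4 without control array 2 and 1 without control array 3. The 8 without overexpression array 2 were 4 Nfib probe sets, 2 of Nfia and Sparcl1, which were lower, and the dim Nfib probe set, which was higher. Nfib 1454834_PM_at lost its call without control arrays 1 (limma adjusted p = 0.0505) and 3 (0.0769). The other 2 Nfib calls were lost without control arrays 1 and 3 and without overexpression arrays 1 and 3 (0.0645 to 0.136). Olig2 lost its call without overexpression arrays 1 and 2 and without control arrays 2 and 3 (0.108 to 0.166), when each array's median was subtracted (0.0563), after quantile normalization (0.0503) and with array weights (0.0572). Nfib 1427680_PM_a_at and 1448288_PM_at lost theirs with a trended and robust variance prior (0.0602 and 0.0655) and with replicate number as a block (0.0983 and 0.103), and 1454834_PM_at with the block (0.0573). Fitted on the 6 arrays of the experiment alone, none of the 24 was called.

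Other genes of glial development moved with them in part. The list held 32 genes, of which 29 were measured, on 64 probe sets. Of these, 10 probe sets of 5 genes fell, where 2.3% of all probe sets were called lower. None rose, and 24 genes had no call. The median difference was -0.04, against -0.01 over all probe sets. The 5 were Zbtb20, Sox9, Stat3, Ptprz1 and Fabp7. Zbtb20, a zinc finger factor of astrocyte development, fell on 4 probe sets, with log2 differences of -1.34 to -1.22, and 1437066_PM_at read 6.14, 6.45 and 5.87 with YAP overexpression, against 7.45, 7.03 and 7.73 in YAP controls (SE 0.17, limma adjusted p = 0.00132). The most negative member, Nfib 1454834_PM_at, was at -0.98.

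Sox9, which gives progenitors the competence to make glia, fell on 2 probe sets, by 0.61 and 0.68 (limma adjusted p = 0.0235 and 0.007). Stat3, the factor through which cytokines switch on astrocyte genes, read 7.24, 6.99 and 6.80 with YAP overexpression, against 7.66, 7.89 and 7.49 in YAP controls (-0.67, SE 0.13, limma adjusted p = 0.0108). Ptprz1, a receptor phosphatase of radial glia and oligodendrocyte precursors, fell by 0.71 and 0.78 on its 2 called probe sets (0.00311 and 0.00526). Fabp7, the lipid-binding protein of radial glia and also on the radial glia list below, fell by 0.66 (SE 0.17, 0.0466), and its overexpression array 2, at 12.49, was again the highest of its group and 0.06 below the lowest control.

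Markers of neurons, of the telencephalon and of its ventral part moved in the same direction on the same arrays, and those of the midbrain had no call. All 9 measured genes of the neuron list had a probe set called lower and none higher. That was 14 of 17 probe sets, where 2.3% of all probe sets were called lower. The list mean was 8.79, 9.09 and 8.49 with YAP overexpression, against 9.60, 9.48 and 9.79 in YAP controls. Overexpression array 3 was the lowest and array 2 the highest, as for the brighter Nfia and Nfib probe sets. Elavl4, an RNA-binding protein of neurons, fell by 0.80 to 0.98 on its 3 probe sets (limma adjusted p of at most 0.000348). In the ventral telencephalon list, which shares the domain of Olig2, 8 of 9 genes had a probe set called lower (9 of 11 probe sets). Its mean was 5.97, 5.94 and 5.60 with YAP overexpression, against 6.85, 7.23 and 7.47 in YAP controls. Gad1, which makes the transmitter GABA, fell by 1.83 on its brighter probe set (limma adjusted p = 0.000194), and Dlx2, a factor of ventral progenitors, fell by 1.92 (0.000521). All 6 intermediate progenitor genes, among them Eomes, had a probe set called lower (7 of 10 probe sets). The radial glia list went both ways. Of its 16 probe sets, 5 of 4 genes were called lower. The Notch target Hes1 was called higher on 1 (0.60, limma adjusted p = 0.00549).

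All 4 measured genes of the telencephalon list fell (4 of 5 probe sets, where 2.3% of all were called lower). The list mean was 7.84, 7.94 and 7.65 with YAP overexpression, against 8.74, 8.46 and 8.81 in YAP controls. Tbr1, a factor of cortical neurons that is also on the neuron list, fell by 1.49 (limma adjusted p = 0.00544). Lhx2 and Emx2, factors of forebrain progenitors that are also on the radial glia list, fell by 0.69 and 0.68 (0.000943 and 0.00308). None of the 5 midbrain genes was called, or had an unadjusted p under 0.05, and their list mean was 6.78, 6.98 and 6.72 with YAP overexpression, against 6.95, 6.86 and 6.84 in YAP controls. Of the 5, 3 (En1, Lmx1b and Pax7) had means below the median probe set of the experiment, so their lack of calls says little. The part of these lists in the differences of the glial genes was not tested.

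Other cell types that use some members showed no calls. None of 9 genes of mesenchyme and pericytes, where Pdgfra, Tnc and Sparcl1 are also active, was called, with list means of 7.57 to 7.84 under YAP overexpression and 7.61 to 8.23 in YAP controls. None of 10 microglial, 8 endothelial and 6 neural crest genes was called either, though 5 of 15 mesenchymal and 2 of 13 neural crest probe sets had an unadjusted p under 0.05, against 0 of 12 and 0 of 11 in the microglial and endothelial lists and 15.7% of all probe sets. The microglial means were 5.38 to 5.62 with YAP overexpression and 5.46 to 5.61 in YAP controls. The endothelial means were 7.40 to 7.54 with YAP overexpression and 7.37 to 7.46 in YAP controls, and the neural crest means 6.28 to 6.48 and 6.38 to 6.67 in the same order. By their brightest probe sets, 1 mesenchymal, 3 microglial and 2 neural crest genes lay below the median probe set of the experiment. The lack of calls for those genes says little.

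**Figure D3:**
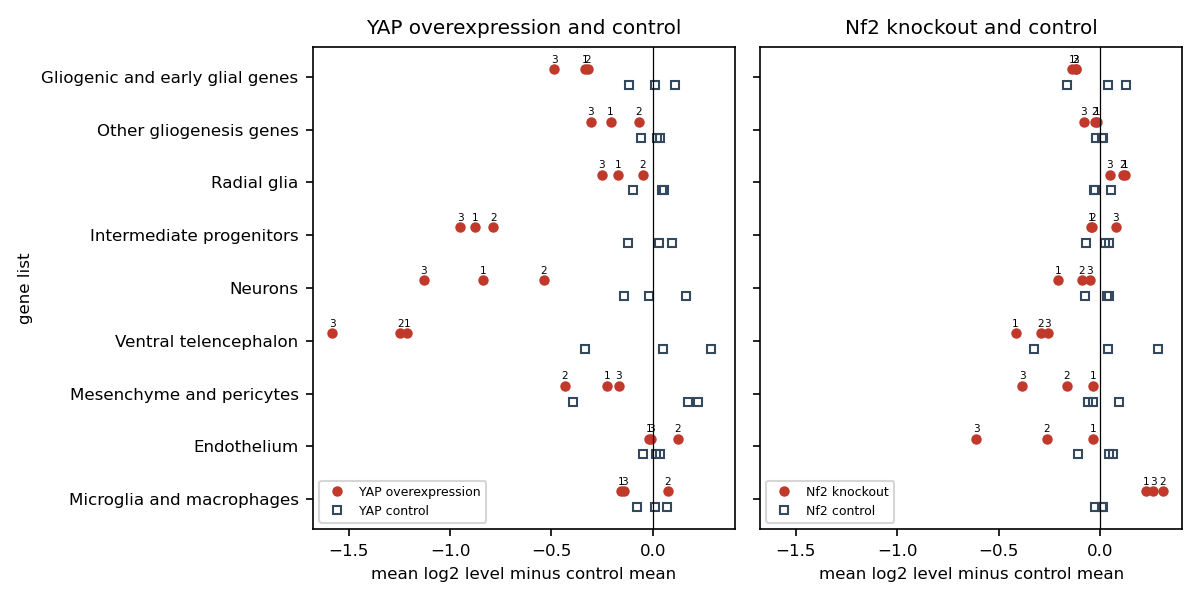
Mean log2 level of each gene list on each array (brightest probe set per gene), minus the mean of the 3 controls, for the YAP experiment on the left and the Nf2 experiment on the right. Red circles are YAP overexpression or Nf2 knockout arrays with their replicate number, and open squares are controls. Array 3 is leftmost and array 2 rightmost for neurons in the YAP experiment.

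The pattern of the brightest Nfia, Nfib and Olig2 probe sets was set against 28892 to 28897 probe sets of other genes, over 12 arrays after subtracting each experiment's control mean. The probe sets most like Nfia were those of Myt1l (r = 0.979), Celf4 (0.978) and Nsg2 (0.977), the first a transcription factor of neurons and the others also neuronal genes. Those most like Nfib belonged to Mvb12b (0.993), Garem2 (0.987) and Ephb1 (0.982), and those most like Olig2 to Pdzrn4 (0.971), Sox12 (0.938) and Ccdc28b (0.937). All of these probe sets were lower with YAP overexpression, by 0.19 to 1.43, with that of Sox12 not called (limma adjusted p = 0.218), and the arrays share that difference, so the values describe likeness only.

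The second comparison asked what the loss of Nf2 does to the same genes in dorsal telencephalon at E13.5. None of the 24 probe sets was called with limma, where 0.133% of all probe sets were, and their adjusted p ran from 0.855 to 0.996. Without adjustment, 3 were lower and 1 higher at p under 0.05, where 2.68% of all probe sets were lower, 2.58% higher and 5.25% either. The differences were small and mostly downward, with 20 of 24 negative, against 50.2% of all probe sets, and a median of -0.16, against 0.00. Probe sets of 1 gene are not independent, and the 20 include all 6 of Nfia and all 6 of Nfib. By the brightest probe set of each gene, 7 of 10 were negative. Groups without overlap in the lower direction were seen in 5 of 24 probe sets, 4 of Nfib and 1 of Aldoc, or 20.8%, against 5.38% of all.

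**Figure D4:**
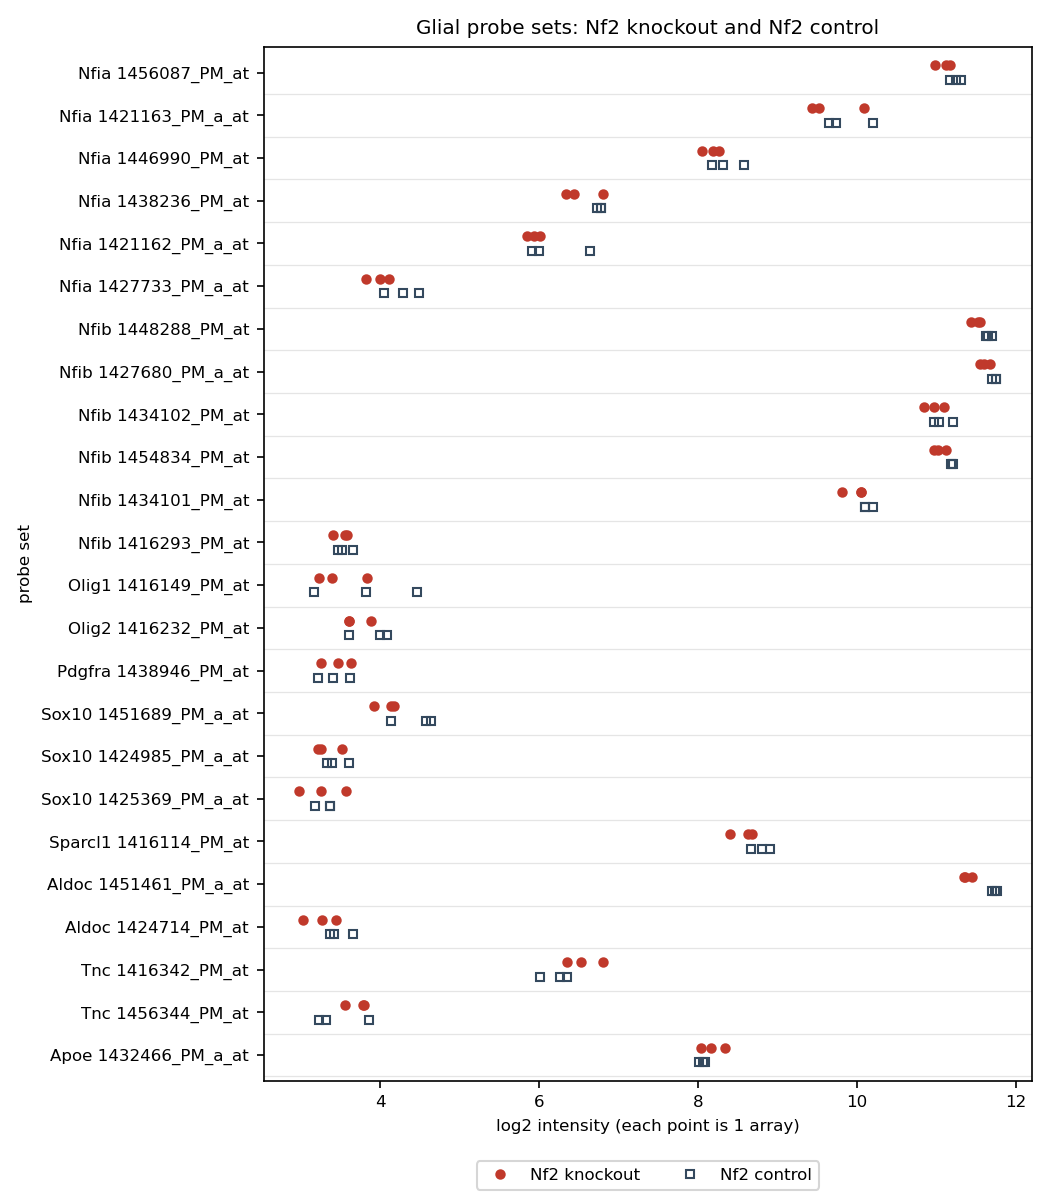
Log2 intensity of the 24 probe sets on the 6 arrays of the Nf2 experiment, with Nf2 knockout as red circles above Nf2 control as open squares in each row. The groups lie close together, the brighter Aldoc probe set and 4 Nfib probe sets separate by small gaps, and Olig1 varies most among the controls.

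Aldoc and Tnc showed the largest differences among the members brighter than the median probe set. Aldoc 1451461_PM_a_at read 11.36, 11.34 and 11.44 in Nf2 knockouts, against 11.73, 11.70 and 11.76 in Nf2 controls. Every knockout lay at least 0.26 below every control, the difference was 1.27-fold, and the test over all probe sets did not call it (-0.35, SE 0.16, limma adjusted p = 0.951). The SE comes from a fit that shares its spread with the YAP experiment, where this probe set varied more (SD 0.26 with YAP overexpression and 0.37 in YAP controls, against 0.05 in Nf2 knockouts and 0.03 in Nf2 controls, n = 3 each). Fitted on the 6 Nf2 arrays alone its adjusted p was 0.327. Tnc 1416342_PM_at was the other way round, with 6.35, 6.80 and 6.52 in Nf2 knockouts, against 6.01, 6.26 and 6.35 in Nf2 controls. The lowest knockout equalled the highest control, and the difference was 0.35 (95% interval 0.02 to 0.68, limma adjusted p = 0.937).

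Nfia and Nfib were lower on all 12 probe sets, by 0.04 to 0.29, and none was called. Nfib 1448288_PM_at read 11.43, 11.54 and 11.52 in Nf2 knockouts, against 11.62, 11.64 and 11.69 in Nf2 controls (-0.15, 95% interval -0.57 to 0.26). The groups did not overlap, but the gap was 0.08. Nfia 1456087_PM_at read 10.98, 11.17 and 11.12 in Nf2 knockouts, against 11.17, 11.24 and 11.30 in Nf2 controls (-0.15, 95% interval -0.67 to 0.37). Both intervals share their spread with the YAP experiment and are wider than the Nf2 arrays alone would give. The SDs of the Nfib probe set were 0.06 in Nf2 knockouts and 0.04 in Nf2 controls, against 0.39 in both YAP groups. Those of the Nfia probe set were 0.10 and 0.07, against 0.57 with YAP overexpression and 0.41 in YAP controls. The probe sets that were positive with YAP overexpression, Nfia 1421162_PM_a_at and Nfib 1416293_PM_at, were here at -0.25 and -0.04, so no sign disagreement was seen. The first of them stood 1.69 above the median probe set of this experiment.

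Olig1, Olig2, Pdgfra and Sox10 were below that median in dorsal telencephalon. Olig1 read 3.83, 3.39 and 3.23 in Nf2 knockouts, against 3.16, 4.46 and 3.82 in Nf2 controls (-0.33, SE 0.26, limma adjusted p = 0.996). The controls spanned more than the knockouts, with control array 2 highest and array 1 lowest. The ventral gene Dlx1 had the same order in the controls, at 4.53, 4.73 and 4.86 in Nf2 knockouts, against 4.25, 6.28 and 5.53 in Nf2 controls, and so had the mean of the ventral list, at 3.78, 3.90 and 3.94 in Nf2 knockouts, against 3.87, 4.48 and 4.24 in Nf2 controls. Olig2 followed the same order in the controls, with 3.61, 3.88 and 3.60 in Nf2 knockouts, against 3.61, 4.08 and 3.99 in Nf2 controls (-0.20, 95% interval -0.58 to 0.19). In the Nf2 knockouts the orders differed. Array 1 was the highest for Olig1 and the lowest for Dlx1 and the ventral list mean, and Olig2 was highest on array 2. The part of ventral tissue in these values was not tested. Sox10 1451689_PM_a_at differed by -0.37 (95% interval -0.68 to -0.07, limma adjusted p = 0.855) and Pdgfra by 0.04.

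Sparcl1 read 8.67, 8.40 and 8.63 in Nf2 knockouts, against 8.66, 8.80 and 8.90 in Nf2 controls (-0.22, 95% interval -0.51 to 0.07). Apoe read 8.04, 8.33 and 8.16 in Nf2 knockouts, against 8.09, 8.06 and 8.01 in Nf2 controls (0.12, 95% interval -0.07 to 0.32). The mean of the 10 microglial genes, cells in which Apoe is also active, was 5.16 to 5.24 in Nf2 knockouts and 4.91 to 4.95 in Nf2 controls, with no gene of that list called and 4 of 12 probe sets at an unadjusted p under 0.05. The endothelial mean was 5.92 to 6.5 in Nf2 knockouts and 6.43 to 6.60 in Nf2 controls. All 8 endothelial genes were lower by their brightest probe set and none was called. Of 11 endothelial probe sets, 5 had an unadjusted p under 0.05, where 5.25% of all probe sets did. The part of microglia and endothelium in the Apoe value was not tested. Of the 64 probe sets of other glial genes, none was called with limma, 7 had an unadjusted p under 0.05, and their median was -0.03.

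Whether a member responded differently in the 2 experiments was tested as the YAP difference minus the Nf2 difference. None of the 24 was called with limma, where 0.12% of all probe sets were, and 5 were lower and 0 higher at an unadjusted p under 0.05, where 4.85% of all were lower, 3.42% higher and 8.27% either. The most negative values were those of Nfib 1454834_PM_at (-0.82, SE 0.28, limma adjusted p = 0.406) and Nfia 1456087_PM_at (-0.76, SE 0.34, 0.586). Olig2 differed by -0.53 (SE 0.25, 0.622) and Tnc 1416342_PM_at by -0.61 (SE 0.21, 0.449). The falls of Nfib and Olig2 were thus not shown to be particular to YAP overexpression, and tissue, age and manipulation cannot be told apart in this difference.

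**Figure D5:**
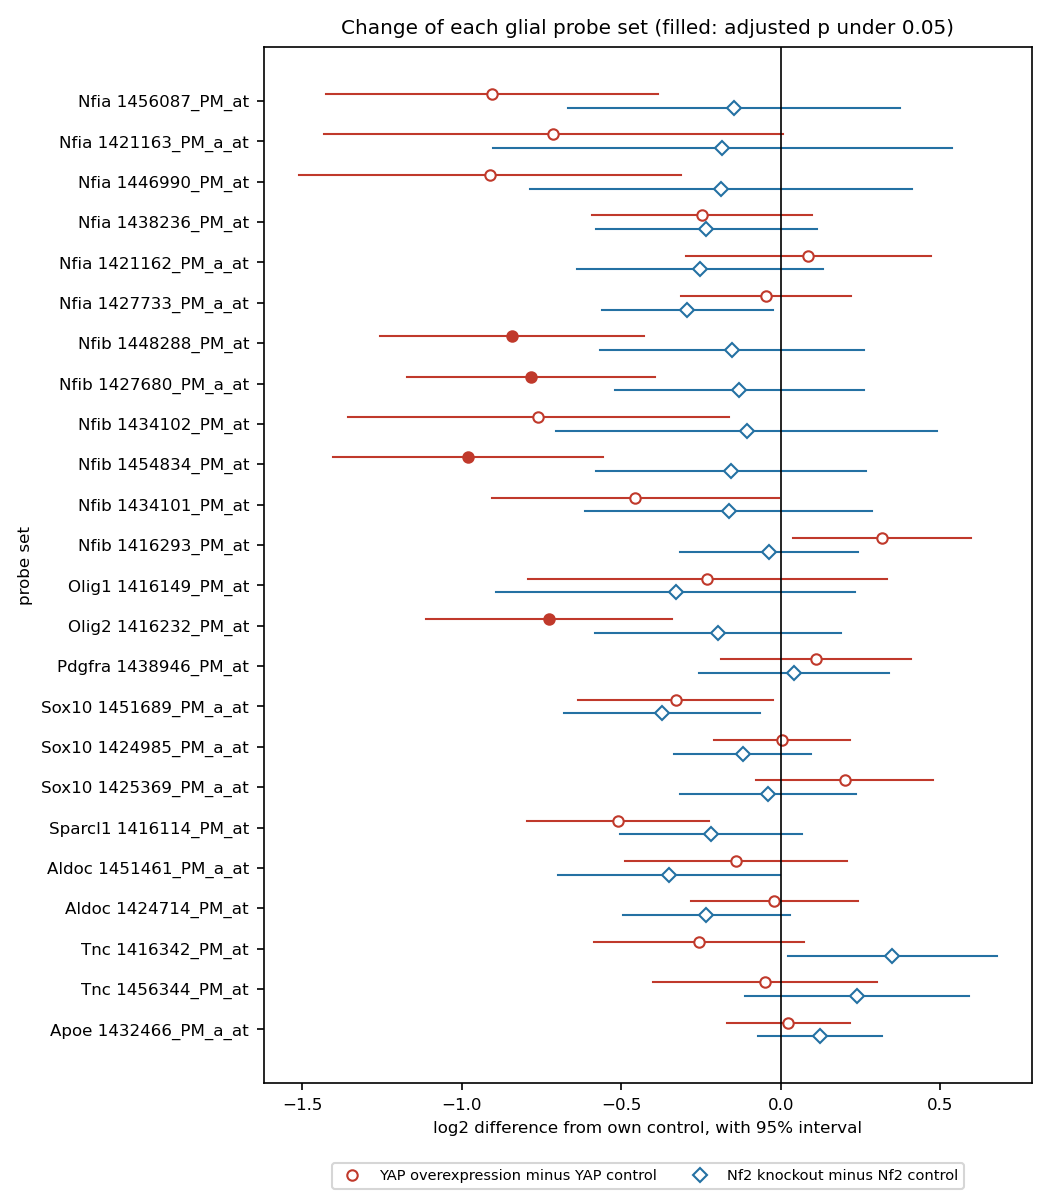
Log2 difference from its own control of each of the 24 probe sets, with 95% limma intervals, for YAP overexpression (circles, upper of each pair) and Nf2 knockout (diamonds, lower). Filled symbols mark the 4 called probe sets, 3 of Nfib and 1 of Olig2, and the intervals of the 2 experiments overlap for each of these.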

How the data were processed

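Per the submitters' processing notes, RMA, Affymetrix Expression Console 1.1 and Partek 6.5 were used, with no role given. The labels' protocols state that Trizol-extracted total RNA was labelled from 100 ng with a 3' IVT Express kit. The authors deposited log2 intensities per probe set to 2 decimals. Array medians show that each experiment was scaled apart, and the exact scale and any centring stay unknown. Symbols are those of the platform annotation (28898 probe sets with a single symbol, 551 with several, 15588 unnamed here). List symbols were updated through Entrez IDs (28689 matched).

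Using limma 3.58.1 (R 4.3.3), 4 group means were fitted over the 12 arrays (8 residual and 4.62 prior degrees of freedom), two-sided, with Benjamini-Hochberg adjustment over 45037 probe sets per comparison. Intervals are 95% limma intervals. The script was tested on simulated data. Members and lists were chosen with earlier results of these data known. The text names all members, called genes of the other glial list, at most 3 called genes per marker list by adjusted p, and the 3 probe sets most like each of Nfia, Nfib and Olig2. Dlx1, Emx1 and the midbrain genes were named after their values were seen. Equal replicate numbers paired the Nf2 arrays by their residuals (r of 0.207 to 0.271, at most -0.000108 for other pairs), not the YAP arrays (-0.204 to 0.0971). Alternatives are given in the closing section.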

Additional observations from a re-analysis of the deposited data

How the results depend on the processing

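Of 1704 probe sets called in the YAP experiment, 1037 were lower. With each array's median subtracted, 819 of 1613 were lower, and after quantile normalization 900 of 1717, so the balance of directions depended on the scaling. With 1 probe set per gene the count was 1078 for the brightest and 895 for the mean, 648 on the 6 YAP arrays alone, and 784 to 2014 with 1 YAP array left out. The count of called member probe sets, 4, was 2 genes with the mean per gene, 0 on the 6 YAP arrays alone, 1 with replicate number as a block, and 1 to 8 with 1 array left out. It was 3 to 5 with single-symbol or brighter probe sets, either rescaling, array weights, a trended robust prior or the brightest probe set per gene, though not always with the same probe sets. The Nf2 count of 60 was 32 with the mean per gene, 44 with the replicate block and 21 to 32 with 1 Nf2 array left out. No alternative called a member in the Nf2 experiment or in the difference of the experiments, and the block changed no other call there.

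Over the alternatives, 282 of 335 single-probe-set values in the YAP experiment kept sign and call, 26 lost a call, 13 gained one and 14 changed sign. In the Nf2 experiment 328 of 335 kept both and 7 changed sign. None that changed sign was called or exceeded 0.107 in size. With medians subtracted, Aldoc 1424714_PM_at had a log2 difference of 0.0133 in the YAP experiment. With array weights, Sox10 1425369_PM_a_at had 0.0377 and Pdgfra -0.0164 in the Nf2 experiment. With 1 array left out, the log2 differences whose sign turned in the YAP experiment were between -0.105 and 0.045 for Aldoc 1424714_PM_at, -0.322 and 0.0483 for Aldoc 1451461_PM_a_at, -0.0233 and 0.0367 for Sox10 1424985_PM_a_at, -0.142 and 0.005 for Nfia 1427733_PM_a_at, -0.03 and 0.212 for Nfia 1421162_PM_a_at, -0.168 and 0.0217 for Tnc 1456344_PM_at, and -0.015 and 0.09 for Apoe. In the Nf2 experiment they were between -0.193 and 0.107 for Sox10 1425369_PM_a_at, -0.075 and 0.0183 for Nfib 1416293_PM_at, and -0.06 and 0.145 for Pdgfra. The causes were not tested.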
